A study of Mus musculus with 10 samples.

Results

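The genes that transcribe the mitochondrial genome and the FASTK family of mitochondrial RNA-binding proteins were examined in leukemia initiating cells of mice that carry the RFP/RET transgene. The 10 members are Tfam, Tfb2m, Polrmt and Tefm for transcription, and Fastk, Fastkd1, Fastkd2, Fastkd3, Tbrg4 and Fastkd5 for the family, out of 55494 measured genes. They were taken by name from the reads summed per gene. The set was chosen on these data, because Tefm and Fastkd3 were higher in every Poly(A:U) library, so the differences of the members between the groups are given as a description and without a test. By edgeR's fit, Tefm was 1.49-fold, Fastkd3 1.59-fold and Tfam 1.19-fold higher after Poly(A:U). In reads per library total these genes had no overlap between the 5 treated and the 5 control pups. All treated libraries were likewise above all controls for 0.779% of the 13729 tested genes. In the authors' deposited table the groups of Tfam overlapped. Polrmt was at 0.865 of its control level. Its groups overlapped in reads per library total, but not after the scaling that the fit uses. The mitochondrial share of reads was the same on average in both groups, at 3.91%.

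RNA was sequenced from cells sorted out of the spleen of 13-day-old pups, 7 days after treatment. The 5 control pups received 50 µl of PBS and the 5 treated pups 20 µg of Poly(A:U), which is an artificial duplex RNA sensed by Toll-like receptor 3. All pups of both groups carried the same Eμ-RET transgene, in which the Eμ immunoglobulin enhancer directs the RFP/RET fusion to the B lineage, so there is no group without the oncogene. The human part of the fusion is not in the gene annotation used here. The series compares the treatments to learn what Poly(A:U) does to these cells. Each library came from a separate pup per the design text, and the labels do not give litters.

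In mitochondria, TFAM bends and packages the circular genome and brings the polymerase to its promoters, TFB2M opens the promoter, and POLRMT, a relative of phage RNA polymerases, makes the RNA. TEFM joins the moving polymerase and lets it complete the long transcripts that cover nearly the whole genome. Those transcripts are then cut, mostly at the tRNAs between the mRNAs, and the proteins of the FASTK family, which share a RAP domain, act on the processing, stability or translation of particular mitochondrial RNAs.

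All 10 members passed the filter on low counts. The libraries held between 17849661 and 22572131 reads in genes, and the members had between 103 reads, for Tefm in a PBS library, and 1601 reads, for Tfam in a Poly(A:U) library. Reads of a gene per 1000000 reads of its library (CPM) are given below for each library. The libraries PBS 1 to PBS 3 stand apart in several ways. Their names share a start that no other library has, their Y-linked gene Ddx3y was at 42.8 to 51.6 CPM against at most 4.67 in the other 7, and their Xist was at most 0.34 CPM against at least 112. In the Poly(A:U) libraries Ddx3y was at most 1.51 CPM and Xist at least 227 CPM. Sex, as far as these genes show it, was therefore partly confounded with treatment. Its part in the differences between the groups was not tested. PBS 4 held both genes, with Ddx3y at 4.67 CPM and Xist at 112 CPM. It also had 16032 genes with 10 or more reads, against at most 14723 in any other library. Shared numbers in the names join libraries of both groups, PBS 5 with Poly(A:U) 1 and PBS 4 with Poly(A:U) 5. Within the treated group, Poly(A:U) 3 and Poly(A:U) 4 also share a number. The labels do not say what these parts of the names mean.

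Markers of B cell precursors fixed for the label were present in every library. The 10 of them summed to 10470 to 16750 CPM with PBS, lowest in PBS 4, and to 12269 to 15038 CPM with Poly(A:U). Their fold changes were negative for 8 and positive for 2, with a median of -0.05 on the log2 scale. Cd79a, a signalling chain of the B cell receptor, was at 2541 to 3687 CPM with PBS and 2588 to 3549 CPM with Poly(A:U), and Pax5, the factor that commits cells to the B lineage, at 759 to 1663 and 906 to 1396 CPM. Markers of other cells were also found. The 10 erythroid markers summed to 302 to 12109 CPM with PBS and 1551 to 12616 CPM with Poly(A:U), and all 10 had positive fold changes. PBS 1 to PBS 3, at 302 to 606 CPM, were below every other library. The 10 neutrophil markers had sums of 735.6 to 1101 CPM in PBS 1 to PBS 3 and of 31.5 to 276 CPM in the 7 others, and all 8 of them that were tested had negative fold changes. The 10 macrophage markers summed to 114 to 276 CPM against 106 to 144 CPM, all 10 with negative fold changes, and the 10 T cell markers to 236 CPM in PBS 4 against at most 41.8 CPM elsewhere. No marker was at 0 in all libraries, while Retnlg among the neutrophil markers and Cd3e among the T cell markers were at 0 in at least 1. The part of these cells in the values below was not tested, and in bulk RNA fewer cells of a type and less RNA per cell cannot be told apart.

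Across all genes, edgeR's quasi-likelihood test with Benjamini-Hochberg adjustment called 0 of 13729 genes (0%) between Poly(A:U) and PBS, members included, and its smallest adjusted p was 0.677. At an unadjusted p under 0.05 it found 1002 genes, of which 564 had higher levels after Poly(A:U) and 438 had lower ones. On the same counts DESeq2 called 13 genes, and limma voom with quality weights called 932 (6.79%). The descriptions below therefore rest on values per library and on intervals, not on calls.

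In CPM, 3 of the 10 members had all 5 Poly(A:U) libraries above all 5 PBS libraries, namely Tefm, Fastkd3 and Tfam. None had all 5 below on this scale. Over all 13729 tested genes, 0.779% were higher and 0.168% lower in this way. The rule that chose the members used these values for Tefm and Fastkd3, so nothing is read from the count. The log2 fold change, Poly(A:U) minus PBS, was positive for 7 members and negative for 3, with a median of 0.14. Over all tested genes 49.4% were positive, with a median of -0.0024 and a median size of 0.124.

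**Figure D1:**
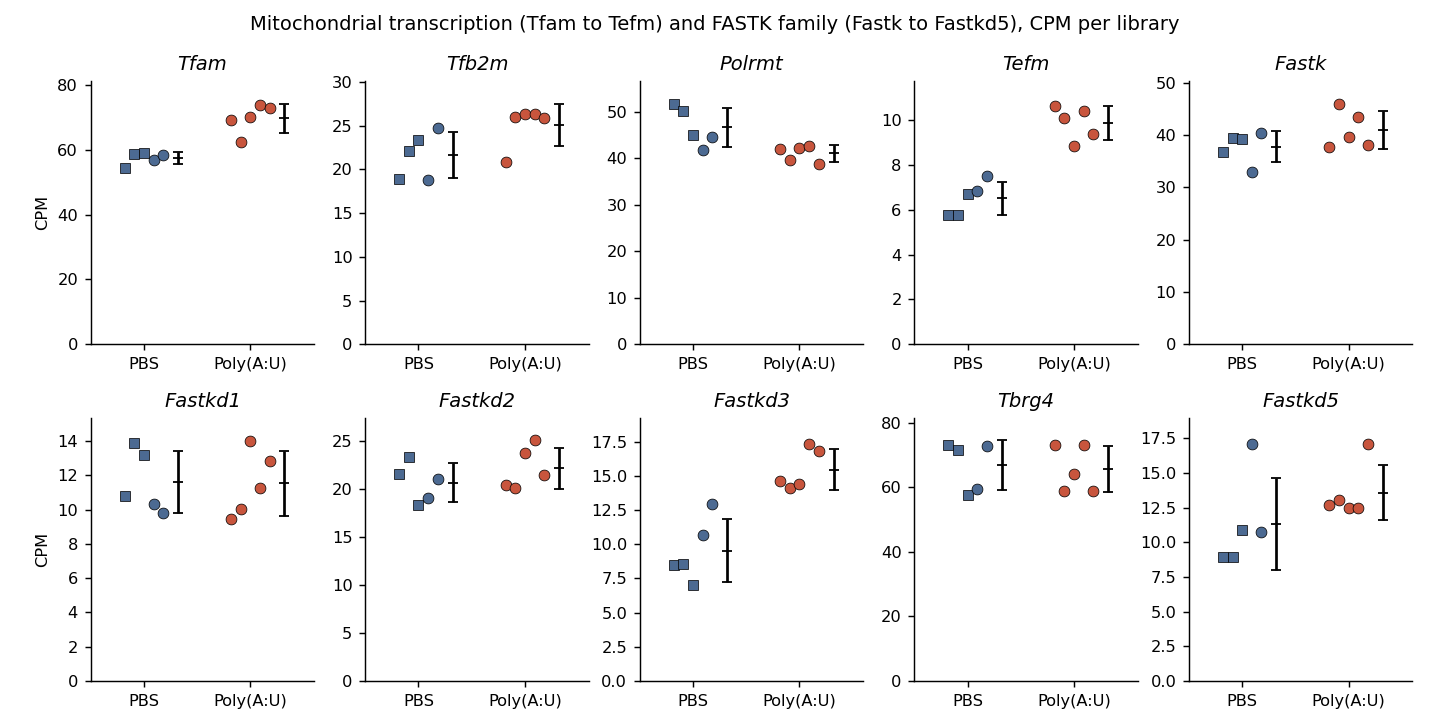
Level of each member in CPM (vertical axes, from 0) in the 5 PBS libraries (blue) and the 5 Poly(A:U) libraries (red), with the mean and the SD beside each group. Squares are PBS 1 to PBS 3, whose library names share a start. Tefm, Fastkd3 and Tfam have no overlap between the groups, and Polrmt has its 2 highest values in PBS 1 and PBS 2.

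The sequence around or just before the start of Tefm and of Fastkd3 is shown because these 2 members had the largest differences between the groups. The sequences are from RefSeq on GRCm38.p6, read 5′ to 3′ on the strand of the gene, and capitals mark a match to a motif. The Tefm stretch lies at chr11:80142154-80142273 on the minus strand and ends at the base before the RefSeq start. Its capitals are the core of an ETS factor site, CCGGAAG, at bases -9 to -3 from that start. The GENCODE start of Tefm, at base 80142175, lies before these bases, so in that annotation the match is inside the gene. The Fastkd3 stretch lies at chr13:68582150-68582233 on the plus strand, and its capitals are an Sp1 box, GGGCGG, at bases -29 to -24 from the RefSeq start. It ends at the base before the GENCODE start, which lies further into the gene, so its last bases follow the RefSeq start.
Tefm: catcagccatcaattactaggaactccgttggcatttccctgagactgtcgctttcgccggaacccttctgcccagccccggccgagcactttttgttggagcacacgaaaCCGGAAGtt
Fastkd3: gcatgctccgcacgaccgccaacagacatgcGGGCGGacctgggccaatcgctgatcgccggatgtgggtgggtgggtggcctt
The Fastkd3 stretch is 84 bases long with 67.9% G or C, and it is all that lies between the GENCODE starts of Fastkd3 and of Mtrr, which encodes methionine synthase reductase and is read the other way. The Tefm stretch is 120 bases long with 55% G or C.

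The same motifs were searched on both strands in RefSeq windows of 300 bases, 250 before and 50 after the start, for all 10 members and for 32851 windows in all. CCGGAAG was in the windows of 6 members, Tfam, Polrmt, Tefm, Fastk, Tbrg4 and Fastkd5, and in 8.86% of all windows. GGGCGG was in the windows of 7 members, Tfam, Tfb2m and the family without Fastkd2, and in 35.7% of all windows. The core of an NRF1 site, GCATGCGC, was in the windows of Tfb2m and Polrmt and in 2.71% of all windows. An E box, CACGTG, was in the window of Fastkd1 and in 7.15% of all windows, and a YY1 core, ATGGCGG, was in no member's window and in 4.06% of all. The members' windows had a median of 60.2% G or C against 52.7% over all windows, and no motif searched contains another. A match is a description of letters and no evidence of binding. The windows of Tefm and Fastkd3, the members with the largest differences, held none of these motifs in common.

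Tfam was the most abundant member by TPM summed over its transcripts, with a mean of 60.6 over the 10 libraries. TPM stands for transcripts scaled to a fixed total per library, with each read count divided by transcript length. Short transcripts weigh much in this sum. Tfam-204, of 596 bases, was at 18.6 TPM in PBS and 22.1 in Poly(A:U), and Tfam-201, of 4167 bases, at 15.4 and 18.1. The Tfam gene lies at chr10:71225464-71238280 in the mm10 build, on the minus strand. In PBS it was at 54.5, 58.9, 59.1, 56.8 and 58.5 CPM, and in Poly(A:U) at 69.3, 62.4, 70.3, 73.8 and 73.0 CPM. The groups did not overlap, and Poly(A:U) 2 was the treated library nearest to PBS. The means were 57.6 ± 1.94 and 69.8 ± 4.52 CPM (SD, n = 5 each). The log2 fold change was 0.25 ± 0.06 (SE) with a 95% interval of 0.11 to 0.39. Its main coding transcript, Tfam-201, also had no overlap, at 41.6 to 47.6 CPM against 49.6 to 55.0 CPM. In the authors' deposited table the groups overlapped, since Poly(A:U) 2 was at 56.9 and PBS 5 at 63.4. In TPM they overlapped too, with Poly(A:U) 2 at 45.3 and the PBS libraries at 46.5 to 61.9.

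Tfb2m, the promoter-opening factor, was at 19.0, 22.1, 23.4, 18.8 and 24.7 CPM in PBS and at 20.8, 26.0, 26.4, 26.3 and 25.9 CPM in Poly(A:U). Among the treated libraries, 4 were above the highest PBS library, and Poly(A:U) 1 lay among the PBS values. The log2 fold change was 0.19 ± 0.11 with a 95% interval of -0.04 to 0.42.

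Polrmt, the polymerase itself, was at 51.8, 50.1, 45.0, 41.7 and 44.6 CPM in PBS and at 42.0, 39.6, 42.2, 42.7 and 38.8 CPM in Poly(A:U). The groups overlapped, because PBS 4 was below 3 of the treated libraries, and the highest levels were in PBS 1 and PBS 2. The means were 46.6 ± 4.17 and 41.0 ± 1.75 CPM, a log2 fold change of -0.21 ± 0.08 with a 95% interval of -0.38 to -0.04. Without PBS 1 to PBS 3 the fold change was -0.10. In the authors' deposited table Polrmt was at a mean of 45.4 in PBS and 44.2 in Poly(A:U), a log2 difference of -0.07, and in TPM the log2 difference was -0.05. After scaling by the TMM factors, which correct for the makeup of each library, Polrmt had all 5 treated libraries below all PBS libraries, as did 0.32% of all tested genes, while Tefm, Fastkd3 and Tfam kept all 5 above, as did 0.488%.

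Tefm, the elongation factor, had 3 coding transcripts at chr11:80136678-80142175 on the minus strand. It was at 5.76, 5.77, 6.72, 6.83 and 7.49 CPM in PBS and at 10.6, 10.1, 8.85, 10.4 and 9.40 CPM in Poly(A:U). Every treated library was above every control, with a gap between PBS 5 at 7.49 CPM and Poly(A:U) 3 at 8.85 CPM. The means were 6.52 ± 0.745 and 9.88 ± 0.745 CPM, with a fitted log2 fold change of 0.57 ± 0.13 and a 95% interval of 0.29 to 0.86. These values rest on 103 to 159 reads per PBS library and 186 to 228 per Poly(A:U) library. Within the name-sharing pairs, Poly(A:U) 1 was above PBS 5 by 0.48 and Poly(A:U) 5 above PBS 4 by 0.43 on the log2 scale. The direction within the pairs was fixed by the rule that chose Tefm, so only the sizes are described.

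The 4 transcription genes together summed to 124 to 137 CPM with PBS and 138 to 153 CPM with Poly(A:U), of which Tfam and Polrmt made up most. Tfam and Tefm were thus higher, Tfb2m higher in 4 of 5 libraries, and Polrmt lower on average, within one pathway. Between libraries, log2 levels of Polrmt and Tefm had a Pearson r of -0.81 over the 10 libraries, and of -0.43 after the group means were taken out. Tfam and Tefm had an r of 0.87, and of 0.17 without the group means. These correlations share the groups and the libraries and are descriptions only.

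**Figure D2:**
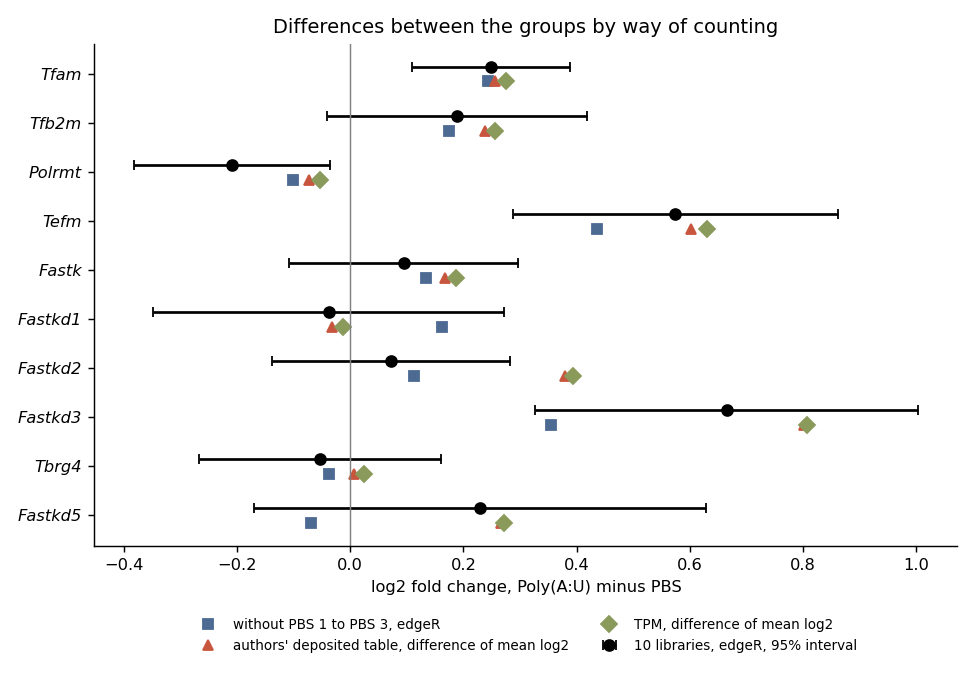
Log2 fold change of each member, Poly(A:U) minus PBS, with the edgeR estimate and its 95% interval from the 10 libraries (black) and the values without PBS 1 to PBS 3 (squares), from the authors' deposited table (triangles) and from TPM (diamonds). Tefm, Fastkd3 and Tfam are above 0 in each, and Fastkd3 moves from 0.67 to 0.36 without PBS 1 to PBS 3. Fastkd2 moves from 0.07 to 0.38 in the authors' deposited table and to 0.39 in TPM.

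In the FASTK family, Fastkd3 was the member with the largest difference. Its protein is known to act on the stability of several mitochondrial mRNAs, and its gene lies at chr13:68582234-68592338 on the plus strand. Fastkd3 was at 8.45, 8.57, 7.04, 10.7 and 13.0 CPM in PBS and at 14.6, 14.1, 14.4, 17.3 and 16.8 CPM in Poly(A:U). The groups did not overlap, and the gap between PBS 5 at 13.0 CPM and Poly(A:U) 2 at 14.1 CPM was narrow. The means were 9.54 ± 2.31 and 15.4 ± 1.49 CPM, with a fitted log2 fold change of 0.67 ± 0.16 and a 95% interval of 0.33 to 1.00.

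The PBS libraries of Fastkd3 differed with their names. PBS 1 to PBS 3 had a mean of 8.02 CPM and PBS 4 and PBS 5 one of 11.8 CPM. Without PBS 1 to PBS 3 the log2 fold change was 0.36, and with the shared name start as a covariate it was 0.35. Tefm moved in the same direction but less, from 0.57 to 0.44 without them. Its PBS 1 to PBS 3 also had the lower mean, at 6.08 CPM against 7.16 CPM for PBS 4 and PBS 5. Within the name-sharing pairs, Fastkd3 in Poly(A:U) 1 was above PBS 5 by 0.17, and in Poly(A:U) 5 above PBS 4 by 0.63, on the log2 scale. Here too the direction was fixed by the rule that chose the gene. PBS 1 to PBS 3 were also the libraries with the high neutrophil markers, the high Ddx3y and the low erythroid markers, and the part of any of these in the level of Fastkd3 was not tested.

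The neighbour Mtrr, whose start is 85 bases from that of Fastkd3, was added after its values were seen. It was at 14.6, 13.2, 11.1, 12.9 and 12.5 CPM in PBS and at 12.7, 11.4, 15.6, 16.9 and 17.2 CPM in Poly(A:U). Its groups overlapped, with 3 treated libraries above all controls and 2 among them. The log2 fold change of Mtrr was 0.17 ± 0.12.

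Fastkd2, whose protein binds the large mitochondrial ribosomal RNA, was at 21.5, 23.4, 18.3, 19.0 and 21.1 CPM in PBS and at 20.5, 20.1, 23.7, 25.0 and 21.4 CPM in Poly(A:U). The groups overlapped, and the log2 fold change was 0.07 ± 0.10. In the authors' deposited table, however, Fastkd2 was at 18.8 ± 2.32 in PBS and 24.5 ± 2.66 in Poly(A:U) with no overlap, a difference of 0.38 on the log2 scale. The share of all genes without overlap was not computed for that table, so nothing is read from this. In TPM, with a log2 difference of 0.39, the groups overlapped, since PBS 1 was at 14.1 and Poly(A:U) 2 at 13.5. 

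Fastkd5 and Tbrg4, also called FASTKD4, are known for processing mitochondrial transcripts where no tRNA marks the cut. Fastkd5 was at 8.94, 8.96, 10.9, 17.1 and 10.7 CPM in PBS and at 12.7, 13.0, 12.5, 12.5 and 17.1 CPM in Poly(A:U). PBS 4 was as high as the highest treated library, while the other 4 PBS libraries were below all treated ones, and the log2 fold change was 0.23 ± 0.18. It was 0.44 without PBS 4, between 0.14 and 0.16 without PBS 1, PBS 2 or Poly(A:U) 5, and -0.07 without PBS 1 to PBS 3. Tbrg4 was at 73.1, 71.7, 57.6, 59.3 and 72.9 CPM in PBS and at 73.2, 58.8, 64.3, 73.2 and 58.9 CPM in Poly(A:U), with high and low libraries in both groups, and its log2 fold change was -0.05 ± 0.10.

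Fastk, the founding member, has a mitochondrial form known for keeping the mRNA of ND6. It was at 36.8, 39.4, 39.3, 33.0 and 40.3 CPM in PBS and at 37.7, 46.0, 39.7, 43.5 and 38.1 CPM in Poly(A:U), with a log2 fold change of 0.09 ± 0.09. Fastkd1, known for limiting the mRNA of ND3, was at 10.8, 13.9, 13.2, 10.3 and 9.80 CPM in PBS and at 9.47, 10.1, 14.0, 11.3 and 12.9 CPM in Poly(A:U), with a log2 fold change of -0.04 ± 0.14. Both genes overlapped between the groups, and the 95% intervals of -0.11 to 0.30 for Fastk and of -0.35 to 0.27 for Fastkd1 are the differences these libraries allow.

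Ordered by TPM summed over each gene's transcripts, the mean over the 10 libraries was 60.6 for Tfam, 52.1 for Tbrg4, 37.8 for Fastk and 28.5 for Polrmt. Tfb2m followed at 18.1, Fastkd2 at 13.8 and Tefm at 11.3 TPM, and the lowest were Fastkd3 at 9.23, Fastkd1 at 5.73 and Fastkd5 at 5.68 TPM. The order of Fastk above Polrmt held in all 10 libraries. Fastkd1 and Fastkd5 were in either order, with Fastkd1 higher in 5 of 10 libraries, and Fastkd2 was above Tefm in 7. The other neighbours in the order kept it in 8 or 9 libraries. Tefm and Fastkd3, the members with the largest differences, were thus among the 4 lowest in this order. Single transcripts can be ordered otherwise. Tbrg4-201 was at 26.4 TPM in PBS and 26.9 in Poly(A:U), above Tfam-201 at 15.4 and 18.1.

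The 10 genes had 74 annotated transcripts. For Tefm, Tefm-201 held 65.5% of the gene's reads on average, from 38.5% in Poly(A:U) 2 to 89.1% in PBS 4. Its level was 4.53 ± 1.13 CPM with PBS and 6.16 ± 2.09 with Poly(A:U), and that of Tefm-202 and Tefm-203 together 1.98 ± 0.726 and 3.73 ± 1.87 CPM. Both parts overlapped between the groups, and only their sum was apart. The sharing of reads among transcripts of one gene is an estimate, and it varied more between libraries than the gene's sum.

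Fastkd3 had most of its reads on 2 transcripts of nearly the same length, the coding Fastkd3-201 and Fastkd3-209, which is annotated as a target of nonsense mediated decay. Fastkd3-201 was at 1.26, 7.28, 0.936, 2.80 and 0 CPM in PBS and at 5.90, 5.41, 6.57, 5.76 and 7.27 CPM in Poly(A:U). PBS 2 was as high as the treated libraries, and PBS 5 was assigned no read of it, whose limit of 3 reads is not a limit on expression because the assignment is estimated. Fastkd3-209 was at 6.08 ± 3.80 and 7.20 ± 1.55 CPM. The sum of both was 8.54 ± 1.98 CPM with PBS and 13.4 ± 1.47 with Poly(A:U), with PBS 5 at 11.4 CPM just above Poly(A:U) 2 at 11.3 CPM.

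Fastkd2 had 81.9% of its reads on Fastkd2-203, which is annotated as a transcript with a retained intron, and 12.6% on the coding Fastkd2-201. Fastkd2-203 held 86.0 ± 4.00% of the reads in PBS and 77.7 ± 4.58% in Poly(A:U), at 17.8 ± 2.16 and 17.2 ± 1.39 CPM. The other Fastkd2 transcripts summed to 2.87 ± 0.754 CPM with PBS and 4.98 ± 1.34 with Poly(A:U), and the groups overlapped. The mean effective length of Fastkd2 was 2259 ± 244 bases in PBS and 1811 ± 117 bases in Poly(A:U). The authors' deposited value for Fastkd2 divided by its CPM was 0.91 ± 0.10 in PBS and 1.11 ± 0.10 in Poly(A:U), so the value in that table was higher where the effective length was shorter.

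**Figure D3:**
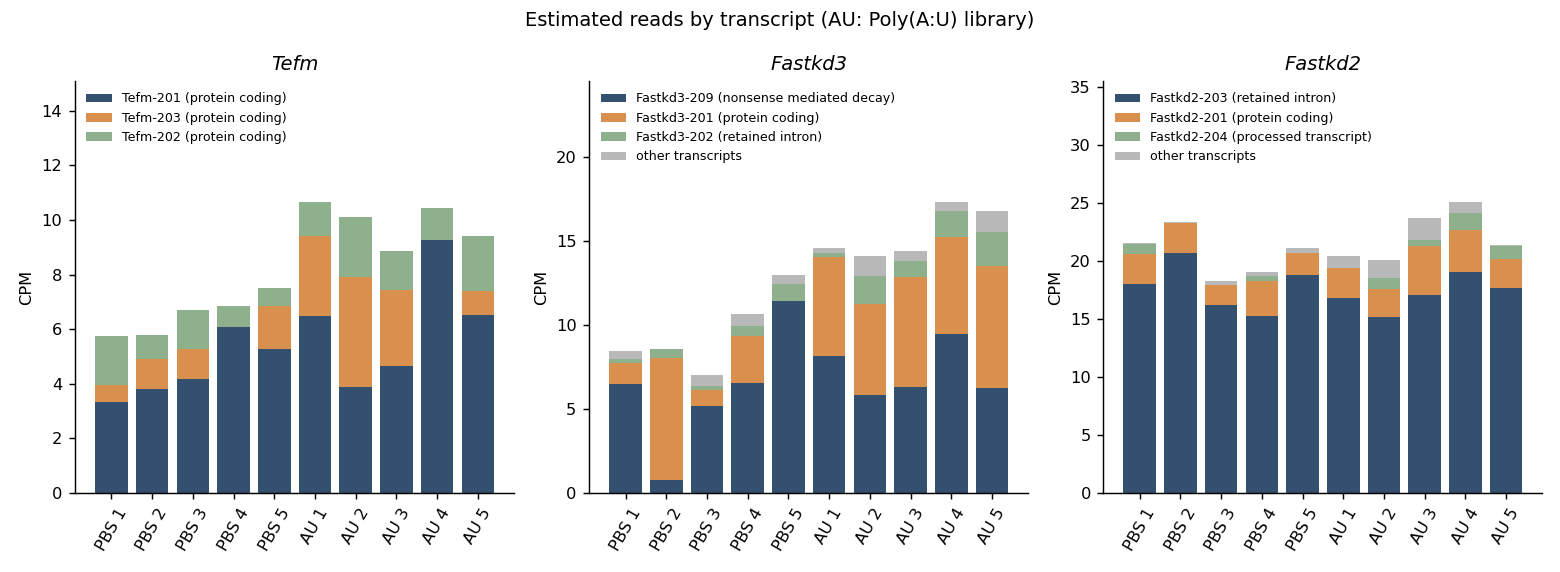
Estimated reads of each transcript in CPM (stacked bars from 0) in the 10 libraries for Tefm, Fastkd3 and Fastkd2, with AU for Poly(A:U). The totals of Tefm and Fastkd3 are higher in every Poly(A:U) library, while the split within each gene varies between libraries, and in Fastkd2 the dark bar of Fastkd2-203 is about the same in both groups at 17.8 and 17.2 CPM.

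Several members share sequence with neighbours. Fastkd5 lies within Ubox5 on the same strand, with 16188 bases in common, and Fastk overlaps the oppositely read Slc4a2 by 2511 bases. Whether strand was used in counting is not given in the sources used here, so reads in the overlaps cannot be assigned with certainty. Ubox5 was at 10.9 ± 0.645 and 12.1 ± 1.64 CPM, and Slc4a2 at 68.9 ± 15.4 and 71.0 ± 4.39 CPM.

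The genes most like Tefm and Fastkd3 were sought among 8494 genes by Pearson r of log2 CPM over the 10 libraries. For Tefm they were Tedc2 at r = 0.93, Bag5 at 0.92, Ifrd1 at 0.91, Sms at 0.90 and Snapc1 at 0.90, and after the group means were taken out the r ranged from 0.44 for Snapc1 to 0.82 for Tedc2. For Fastkd3 they were Pcgf6 at r = 0.98, Fbxo9 at 0.97, Abhd10 at 0.96, Ccdc25 at 0.96 and Rab3ip at 0.95, and without the group means the r was between 0.89 and 0.95. The 2 lists share no gene. Tefm and Fastkd3 had an r of 0.87 with each other and of 0.47 without the group means. They are the highest of the genes searched and carry no test.

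The other genes of mitochondrial transcription and RNA metabolism were listed in 5 groups, and edgeR's test called 0 of the 71 that were tested, against the 0% of all genes. Of the 71, 41 had positive and 30 negative fold changes, with a median of 0.05, and 1, Mrm1, had all treated libraries above all controls, against 0.779% of all tested genes, a share too near for 1 gene to be a result about the lists. By group, positive fold changes were found in 8 of 9 termination factors and partners of transcription (median 0.05), in 7 of 12 genes of mitochondrial DNA replication (0.10) and in 10 of 18 genes of RNA processing and decay (0.03). They were found in 13 of 22 genes of RNA modification (0.04) and in 3 of 10 nuclear regulators (-0.04).

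Among the partners, Slirp, whose protein stabilises mitochondrial mRNAs together with LRPPRC, was at 20.0 ± 2.80 CPM with PBS and 24.5 ± 2.31 with Poly(A:U), with a log2 fold change of 0.27 ± 0.12. The log2 fold change was 0.24 for Mterf3, a regulator of mitochondrial transcription and ribosome assembly, and -0.02 for Lrpprc itself. It was 0.06 for Tfb1m, the methyltransferase related to Tfb2m, and 0.05 for the termination factor Mterf1a. All of these had adjusted p-values of at least 0.677 by edgeR's quasi-likelihood test.

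Of the processing genes, Trmt10c, a subunit of the RNase P that cuts the 5′ ends of mitochondrial tRNAs, was at 22.5 ± 3.63 CPM with PBS and 27.9 ± 2.53 with Poly(A:U), with a log2 fold change of 0.28 ± 0.11. That of Angel2 was 0.16. Mrm1, which methylates the large ribosomal RNA, was at 10.1, 11.4, 10.6, 11.1 and 10.9 CPM in PBS and at 15.8, 13.6, 13.3, 12.9 and 11.9 CPM in Poly(A:U). Every treated library of Mrm1 was above every control, with a log2 fold change of 0.30 ± 0.11. In the opposite direction, Cdk5rap1, which modifies mitochondrial tRNAs, had a log2 fold change of -0.30 ± 0.13. In replication, the log2 fold change was 0.27 for the nuclease gene Dna2 and -0.14 for the polymerase gene Polg. None of these was called by edgeR, while limma voom with quality weights, which called 6.79% of all tested genes, called Trmt10c.

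Among the nuclear regulators, Nrf1, whose protein binds the promoters of many mitochondrial genes, was at 95.2 ± 7.36 CPM with PBS and 83.1 ± 6.40 with Poly(A:U), and its log2 fold change was -0.22 ± 0.07. That of Gabpa, which encodes an ETS factor, was -0.02. Myc was at 30.2, 30.8, 33.5, 96.1 and 68.4 CPM in PBS and at 73.5, 78.0, 75.7, 81.9 and 116 CPM in Poly(A:U). The low values were those of PBS 1 to PBS 3, while PBS 4 was above 4 of the treated libraries, and the log2 fold change was 0.68 ± 0.35. None of the 3 was called by edgeR, while limma voom with quality weights called Nrf1 and Myc. It called 3 of the 71 genes in the lists against 6.79% of all tested genes, so nothing about the lists is read from these calls.

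**Figure D4:**
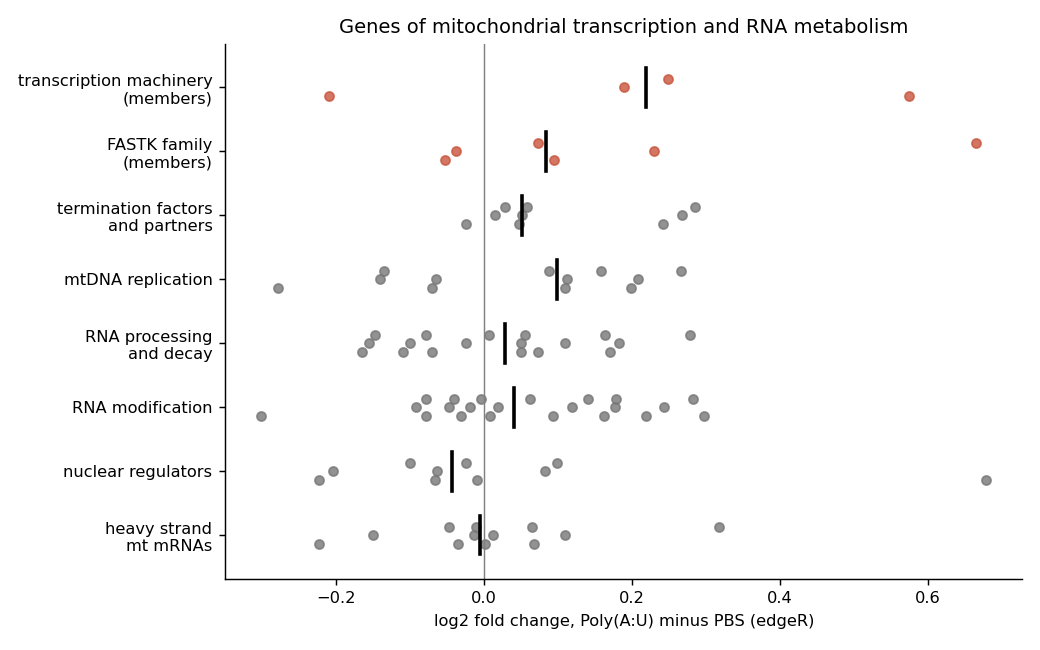
Log2 fold change, Poly(A:U) minus PBS (horizontal axis), of the members (red) and of the other genes of mitochondrial transcription and RNA metabolism and the heavy strand mRNAs (grey), one point per gene, with a bar at each median. Tefm and Fastkd3 are the points on the right among the members, and the medians of the other groups lie between -0.04 and 0.10.

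The RNAs on which the members act were not used to choose them. They come from the mitochondrial genome, whose heavy strand transcript gives 12 mRNAs and whose light strand transcript gives 1, mt-Nd6. Of the 12 heavy strand mRNAs 6 had positive and 6 negative fold changes, from -0.22 for mt-Atp8 to 0.32 for mt-Co2, with a median of -0.01. The ribosomal RNAs mt-Rnr1 and mt-Rnr2 had log2 fold changes of -0.06 and -0.30. None of these 15 genes was called by edgeR.

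The share of reads from the mitochondrial genome was 3.40, 4.68, 4.29, 3.40 and 3.80% in PBS and 3.94, 5.53, 4.17, 2.93 and 3.00% in Poly(A:U). The groups overlapped fully, with both the highest and the lowest share in Poly(A:U), and the means were 3.91 ± 0.562% and 3.91 ± 1.06% (SD, n = 5 each). A two-sided exact permutation test over all assignments of the libraries to 2 groups of 5, whose smallest possible p is 0.00794, gave p = 1.00, with an adjusted p of 1.00 over the 3 mitochondrial measures.

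RNA levels from the strands were compared as the log2 ratio of mt-Nd6 to the summed heavy strand mRNAs. This is a ratio of levels in the libraries and does not measure the transcription of each strand. The level of mt-Nd6 was 9.92, 22.9, 16.8, 4.77 and 5.70 CPM in PBS and 4.79, 13.5, 8.56, 7.11 and 8.26 CPM in Poly(A:U), few reads against 27738 CPM or more for the summed heavy strand mRNAs. PBS 2 and PBS 3 had the highest values, and PBS 4 and PBS 5 were among the 3 lowest. The ratio was -11.8 ± 0.82 in PBS and -12.2 ± 0.47 in Poly(A:U), a difference of -0.31 with an exact permutation p of 0.460, adjusted 0.690. The difference was -0.07 when PBS 2 was left out, -0.17 for PBS 3 and -0.11 for Poly(A:U) 1, and it was -0.53 when PBS 4 and -0.51 when PBS 5 was left out. Without PBS 1 to PBS 3 it was 0.53, in the other direction.

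RNA levels along the heavy strand were compared as the log2 ratio of mt-Cytb, far from the promoter, to mt-Nd1, near it. TEFM is known for carrying the polymerase along that distance, but a ratio of levels does not measure transcription. The ratio was 0.54, 0.46, 0.30, 0.54 and 0.50 in PBS and 0.46, 0.50, 0.58, 0.60 and 0.75 in Poly(A:U). Of the treated libraries 3 were above all controls and 2 lay among them. The means were 0.47 ± 0.10 and 0.58 ± 0.11, a difference of 0.11 with an exact permutation p of 0.175, adjusted 0.524.

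**Figure D5:**
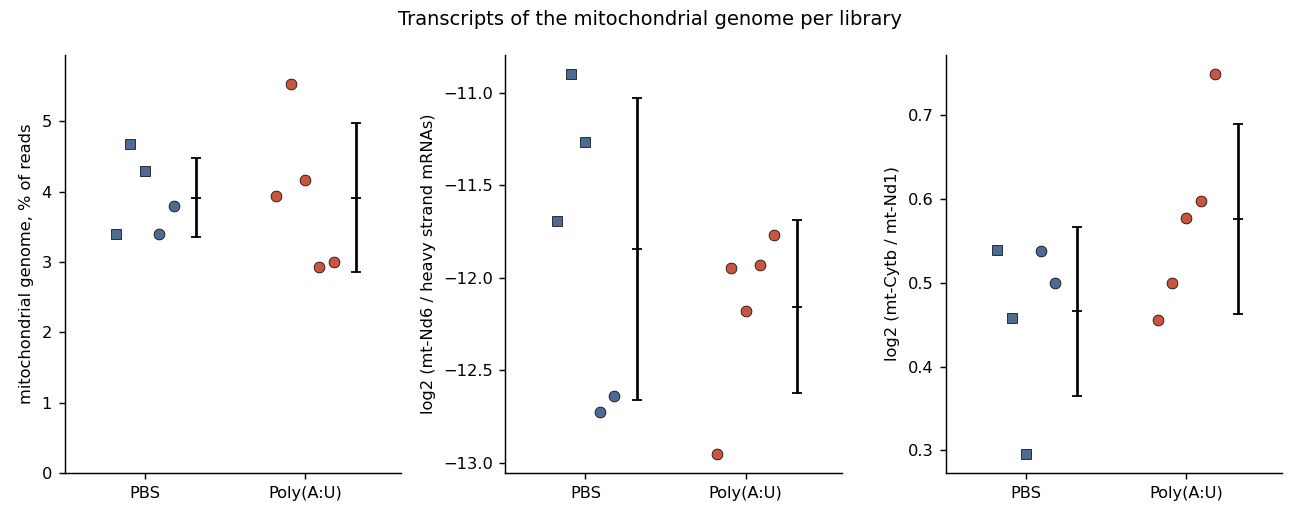
Transcripts of the mitochondrial genome in each library, as the share of reads in percent, the log2 ratio of mt-Nd6 to the heavy strand mRNAs and the log2 ratio of mt-Cytb to mt-Nd1, with the mean and the SD beside each group. Squares are PBS 1 to PBS 3, and the groups overlap in all 3 measures.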

How the data were processed

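RNA-seq of 10 libraries, 5 PBS and 5 Poly(A:U), was used as deposited. Per the file headers, the authors gave estimated counts of reads, TPM and effective length for 142333 transcripts, and in a table of the series a normalized signal (CPM after scaling) for 13699 genes. DRAGEN, edgeR 3.38.4 and the build mm10 are named in the submitters' processing notes. Counter settings, annotation and strand use are not stated in those notes or the labels.

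Estimated counts were summed per gene with GENCODE M21 and rounded. The 538 transcripts without a gene held 0.046% to 0.0695% of the reads. Library totals ran from 17859006 to 22587871 reads. Reads that similar transcripts share were divided by the authors' estimation, which limits values per transcript. TPM was summed per gene.

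Genes passing filterByExpr (minimum count 10) were fitted with edgeR 4.0.16 in R 4.3.3, with TMM factors and robust quasi-likelihood, and Benjamini-Hochberg adjusted at a threshold of 0.05 (two-sided). Standard errors and 95% intervals come from this fit and cover the spread between pups and counting error. The script was first tested on simulated data. DESeq2 1.42.0, limma 3.58.1, other scaling and filters, single libraries left out, PBS 1 to PBS 3 left out, and terms for shared parts of the library names (the one with all parts chosen after seeing the data) were tried. "No overlap" means that all 5 libraries of one group lie above all 5 of the other.

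The members and lists were chosen with earlier results of these data known. Named genes are the members, the 2 genes of each list with the smallest unadjusted p, Tfb1m, Mterf1a, Lrpprc, Slirp, Nrf1, Gabpa, Myc and the mitochondrial mRNAs, and the 5 genes of at least 10 CPM most like Tefm and Fastkd3 (log2 CPM, prior count 2). Mtrr and Ddx3y, Xist, Ubox5 and Slc4a2 fall outside this rule and were picked with values known. One marker of the B cell list is not reported here.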

Additional observations from a re-analysis of the deposited data

Results flagged for a closer look

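In each of 52 groups of 5 values, the gap of a library to the nearest other was divided by the range of the group. This share exceeded Dixon's 95% critical value of 0.71 in 4 groups, and chance flags about 1 group in 20. Fastkd5 was at 17.1 CPM in PBS 4, where the other PBS libraries were at 8.94 to 10.9 CPM. It was also at 17.1 CPM in Poly(A:U) 5, where the other treated libraries were at 12.5 to 13.0 CPM. PBS 4 and Poly(A:U) 5 share a number in their library names. Tfb2m was at 20.8 CPM in Poly(A:U) 1, below the other treated libraries at 25.9 to 26.4 CPM. The mitochondrial mRNA mt-Atp6 was at 2199 CPM in PBS 2, above the other PBS libraries at 1190 to 1442 CPM.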

How the results depend on the processing

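The number of genes called was 0 in edgeR, 13 with DESeq2 and 932 with limma voom and quality weights (6.79% of the genes tested), of which 3 were among the 71 other pathway genes (Trmt10c, Nrf1 and Myc), and leaving out 1 library gave 0 to 18, the latter without PBS 5. With the replicate number as a block edgeR called 0 genes; the numbers do not pair the pups, as deviations of same-numbered libraries correlated at -0.18 to 0.14. The sign was kept under every alternative run for Tefm (0.43 to 0.63, 21 alternatives), Fastkd3 (0.35 to 0.81, 22), Tfam (0.22 to 0.27, 22) and Polrmt (-0.24 to -0.05, 22). Fastkd1 kept it in 16 of 22, Fastkd5 in 20 and Tbrg4 in 20. Tefm and Fastkd3 were chosen for being higher in every treated library. Their kept sign was thus nearly fixed in advance, and nothing is read from it. Tefm was below the stricter filter of 10 CPM in 5 libraries. With every shared part of the library names in the model, chosen after seeing the data, Fastkd3 was at 0.36 and Tefm at 0.43. The difference in mitochondrial share was -0.36 percentage points with TPM, and -0.40 to 0.25 when 1 library was left out. The difference in the mt-Nd6 ratio was 0.53 without PBS 1 to PBS 3 (exact permutation test, adjusted p = 0.714). Tefm had the fewest reads of the members, and the median 95% half-width over genes of 10 CPM or more was 0.245 on the log2 scale.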
